A study of Homo sapiens with 2 samples.

Results

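The regions described here are the PARP1 peaks at promoters that no PRMT6 peak touched. Of the 11651 peaks in the PARP1 list, 3859 reached a promoter, here any base within 3000 bp of a protein-coding 5′ end, and 1741 of these shared no base with any of the 9080 PRMT6 peaks. The 2 lists together held 20731 peaks. The members were chosen by the measured peak positions themselves, so their lack of overlap, 45.1% of PARP1 promoter peaks (95% exact binomial interval 43.5% to 46.7%), is a description and not a result. The study profiled untreated MDA-MB-231 cells, which are a long-established line from human triple-negative breast cancer, with 1 CUT&Tag library for PARP1 and 1 for PRMT6, to find the promoters that each protein occupies. Both groups were the same line grown in the same serum-supplemented medium without any allele or agent. The antibody was the only stated difference between them. With 1 library per antibody there was no replicate, no test between groups was possible and every value describes these libraries. Intervals cover counting error only, and the lists do not give the number of reads behind them.

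PARP1 is a nuclear enzyme that binds damaged DNA and nucleosomes and attaches chains of ADP-ribose to itself, histones and other chromatin proteins. It is best known for its part in DNA repair, and it also sits at promoters of active genes. PRMT6 methylates arginines, histone H3 among its substrates. In CUT&Tag an antibody brings the Tn5 transposase to a protein on chromatin, and a peak is a stretch with more tagged fragments than its surroundings. Each peak carries a score (−log10 p from the peak caller), which was used to rank peaks within the PARP1 list (rank 1 is the highest score).

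The promoters printed here belong to 5 of the 12 members with the highest scores and show the sequence under these peaks. ARHGAP24 (chr4:85474900-85475199, plus strand) and NOL7 (chr6:13615085-13615384, plus strand) are whole windows of 300 bases, from 250 bases before to 50 after the start, because the peak covered them. For EMSY (chr11:76444768-76445023, plus strand), XPOT (chr12:64404142-64404420, plus strand) and PPIP5K2 (chr5:103120051-103120309, plus strand), the neighbour that shares its peak with GIN1, the stretch of the window inside the peak is shown, a choice made after their values were seen. The sequences are from RefSeq, build GRCh38.p14, and run 5′ to 3′. Capitals mark matches on either strand to any of 9 short motifs that are spelled out with the motif shares further on.
ARHGAP24: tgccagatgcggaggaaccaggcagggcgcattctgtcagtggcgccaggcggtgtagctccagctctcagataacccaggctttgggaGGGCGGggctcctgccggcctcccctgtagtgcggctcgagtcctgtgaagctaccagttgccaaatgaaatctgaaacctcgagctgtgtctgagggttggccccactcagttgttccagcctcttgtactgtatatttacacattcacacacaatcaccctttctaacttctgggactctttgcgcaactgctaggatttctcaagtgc
NOL7: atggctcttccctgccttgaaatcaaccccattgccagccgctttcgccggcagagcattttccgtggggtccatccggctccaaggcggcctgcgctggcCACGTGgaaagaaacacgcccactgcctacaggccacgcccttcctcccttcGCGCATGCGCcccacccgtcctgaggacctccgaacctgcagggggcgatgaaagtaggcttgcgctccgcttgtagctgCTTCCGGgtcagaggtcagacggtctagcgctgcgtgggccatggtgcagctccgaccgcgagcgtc
EMSY: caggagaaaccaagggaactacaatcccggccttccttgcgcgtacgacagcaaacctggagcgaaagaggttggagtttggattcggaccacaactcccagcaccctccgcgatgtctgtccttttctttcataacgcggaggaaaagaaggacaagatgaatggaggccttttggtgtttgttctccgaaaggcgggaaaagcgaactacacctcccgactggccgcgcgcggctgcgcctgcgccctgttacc
XPOT: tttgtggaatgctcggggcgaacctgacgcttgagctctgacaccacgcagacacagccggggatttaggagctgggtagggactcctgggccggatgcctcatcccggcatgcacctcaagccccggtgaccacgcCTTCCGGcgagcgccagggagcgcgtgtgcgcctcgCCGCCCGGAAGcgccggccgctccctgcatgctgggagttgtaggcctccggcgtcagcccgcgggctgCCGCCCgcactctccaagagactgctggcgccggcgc
PPIP5K2: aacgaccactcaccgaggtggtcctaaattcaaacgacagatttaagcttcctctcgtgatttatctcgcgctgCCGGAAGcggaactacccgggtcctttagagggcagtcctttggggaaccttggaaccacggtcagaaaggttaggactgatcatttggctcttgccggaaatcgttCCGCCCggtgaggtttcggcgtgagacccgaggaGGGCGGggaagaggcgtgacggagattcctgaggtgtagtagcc
ARHGAP24 held 1 match, a GC box. NOL7 held an E-box, an ETS motif and a palindrome that reads as the NRF1 core on both strands, so that its matches overlap. XPOT held 2 ETS motifs and 2 GC boxes, of which an ETS motif and a GC box overlap. PPIP5K2 held 1 ETS motif and 2 GC boxes, and EMSY held no match. The stretches under the members at GNG5, VIPAS39 and ACOT9, which also rank among the 12, were read but are not printed. All of them held GC boxes, and GNG5 also held an AP-1 motif and ACOT9 a CCAAT box. The ratio of observed to expected CpG was 0.436 in the ARHGAP24 sequence, and it was 0.830 in NOL7, 0.872 in XPOT, 0.988 in EMSY and 1.00 in PPIP5K2.

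The highest-scoring member lay at C12orf57, a gene for a small protein needed in brain development (chr12:6943879-6944388, score 17.64, rank 396 of 11651). It began 1 bp beyond RNU7-1, the gene of the U7 small nuclear RNA that processes histone transcripts, and its center was 700.5 bp downstream of the C12orf57 5′ end. The next member spanned the 5′ end of GNG5, a G-protein gamma subunit (chr1:84506224-84506765, score 15.68, rank 586). The member at VIPAS39, a vesicle-sorting gene divergent to AHSA1, which encodes an activator of the HSP90 ATPase, scored 15.45 (chr14:77457517-77457837, rank 633). The distance from these peaks to the nearest PRMT6 peak was 26128 bp for C12orf57, 183754 bp for GNG5 and 36838 bp for VIPAS39.

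The member at ACOT9, a mitochondrial acyl-CoA thioesterase, scored 15.10 (chrX:23743235-23743602). EMSY, whose product binds BRCA2, had a member with a score of 15.06 (chr11:76444672-76445023). At NIFK, whose nucleolar product binds the proliferation marker Ki-67, the member scored 14.84 and ended upstream of the 5′ end (chr2:121736950-121737241). All 3 lay over 60 kb from a PRMT6 peak, with distances of 75519 bp, 63240 bp and 205378 bp.

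The member at ARHGAP24, a GTPase-activating protein for Rac, scored 14.83 (chr4:85474892-85475210). XPOT, the nuclear exporter of tRNA, had a member with a score of 14.46 (chr12:64404087-64404420). PPM1K, a mitochondrial phosphatase of branched-chain amino acid breakdown, had one with a score of 14.34 (chr4:88284627-88284967). The member between the divergent genes GIN1 and PPIP5K2, of which the latter makes inositol pyrophosphates, scored 14.10 (chr5:103119981-103120309). LAPTM5, a lysosomal membrane protein gene known from blood cells, had a member 936 bp downstream of its 5′ end with a score of 13.70 (chr1:30756634-30757042). NOL7, a nucleolar protein gene, had a member with a score of 13.67 and a rank of 879 (chr6:13615065-13615526). Each of these 12 members lay over 10000 bp from the nearest PRMT6 peak, and the promoter windows they reached held no PRMT6 peak.

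Apart from these, members mostly ranked low. Their median score was 5.93 (quartiles 4.93 and 7.32, range 3.02 to 17.64), against 8.75 (6.63 and 12.2) in the 2118 PARP1 promoter peaks that overlapped a PRMT6 peak. As percentiles of the whole PARP1 list, where 100 is the highest score, the medians were 41.3 (interval 38.8 to 42.7) and 75.1 (73.9 to 76.8). Members were also narrower, with a median width of 244 bp against 345 bp. The smallest width in the list, 200 bp, was that of 567 members (32.6%, 30.4% to 34.8%) and of 183 overlapping peaks (8.64%, 7.48% to 9.92%). In the PRMT6 list the smallest width was 288 bp. Because peaks of low score were mostly members, the score stands beside each of the comparisons that follow. Its part in them was not tested, although some shares are also given by score.

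**Figure D1:**
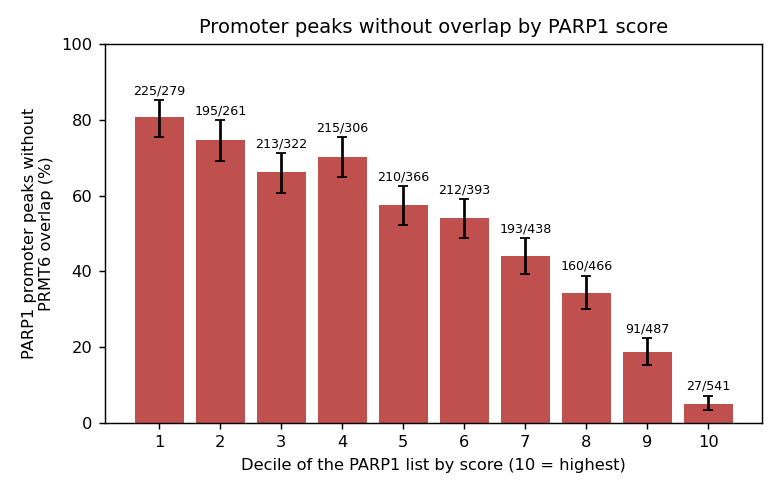
Share of PARP1 promoter peaks without PRMT6 overlap (vertical axis, percent) in each decile of the PARP1 list by score (horizontal axis, decile 10 holds the highest scores), with 95% exact binomial intervals and the counts above the bars. The share was 80.6% in decile 1, 44.1% in decile 7 and 4.99% in decile 10.

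The share without overlap fell along the score, as the plot by score decile shows. It was 80.6% in the lowest decile (225 of 279 promoter peaks, 75.5% to 85.1%) and 53.9% in the sixth (212 of 393, 48.9% to 59.0%). In the ninth it was 18.7% (91 of 487, 15.3% to 22.4%), and in the highest it was 4.99% (27 of 541, 3.31% to 7.18%). That decile starts at a score of 12.35, and its 27 members include all 12 named before.

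The distance from members to PRMT6 peaks follows in part from the rule, which removed every peak that touches one. It was not computed for other peaks or promoters, so it has no reference. The median distance to the nearest PRMT6 peak was 51.5 kb (51490 bp, interval 47420 to 56070 bp). No PRMT6 peak lay within 10000 bp of 1450 of 1741 members (83.3%, 81.4% to 85.01%). A PRMT6 peak lay within 500 bp of 91 members (5.23%) and within 10 bp of 7. The members nearest the limit were those at ZZZ3 and at TSTD2, both 2 bp from a PRMT6 peak, and at HECTD2, 3 bp away. Just outside it, the PARP1 peaks at NRBP1, HABP4 and OLA1 shared 3, 6 and 8 bp with a PRMT6 peak. At the edge of the promoter window, the members at PFN1 (3000 bp), SINHCAF and C12orf42 (both 2983 bp from the 5′ end) were just inside, while peaks near ASXL1 (3004 bp), ADAMTS4 and ZFAND2A (both 3033 bp) were just outside.

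In 1571 of 1741 members (90.2%, 88.7% to 91.6%) the promoter windows held no PRMT6 peak at all. This share follows in part from the rule, which removed every PARP1 peak that touches a PRMT6 peak. Promoters without a PRMT6 peak were also common among all 19674 protein-coding genes. Of these, 14281 (72.6%) had no promoter peak of either list, and 1791 (9.10%) had a member and no PRMT6 promoter peak. In the other 170 members (9.76%) a PRMT6 peak lay in the same window beside the PARP1 peak, with a median of 799.5 bp between the centers (interval 710 to 950 bp). The PRMT6 peak was nearer to the 5′ end than the member in 97 of the 170, and its center lay downstream of the member's in 85. In 89 of the 170 this PRMT6 peak overlapped another PARP1 peak.

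Examples of these split promoters, chosen by score after their values were seen, were PHF12, a subunit of a histone deacetylase complex, and MCM7, a subunit of the replicative helicase. The PHF12 member (chr17:28952371-28952669, score 13.51) lay 353 bp from a PRMT6 peak of rank 78. The member that spanned the 5′ end of MCM7 scored 12.90 and lay 1541 bp from a PRMT6 peak. Among the 10 genes of the study's qChIP panel, 2 had a member, and both were split in this way. At BHLHE40, a repressor of the circadian clock, the member lay 65 bp from a PRMT6 peak (score 8.63, rank 2990). At GAPDH, a glycolysis gene, it lay upstream of the 5′ end and 1182 bp from a PRMT6 peak (score 6.93, rank 4882).

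Members stood less tightly at the 5′ end than the overlapping peaks did. They spanned a 5′ end in 700 of 1741 cases (40.2%, 37.9% to 42.5%), against 1151 of 2118 (54.3%, 52.2% to 56.5%). The center lay in the 250 bp upstream of the nearest 5′ end in 725 members (41.6%) and 1197 overlapping peaks (56.5%). In the 250 bp downstream the order was the opposite, with 19.3% (17.5% to 21.2%) and 13.5% (12.03% to 14.98%). More than 1000 bp from the nearest 5′ end were 17.6% of members (15.8% to 19.4%) and 9.40% of overlapping peaks (8.19% to 10.7%). None of the intervals given here overlapped between the groups. The groups also differed in score and in width (median 244 bp for members and 345 bp for overlapping peaks). Whether a peak spans a 5′ end depends on its width, and the part of width or score was not tested.

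**Figure D2:**
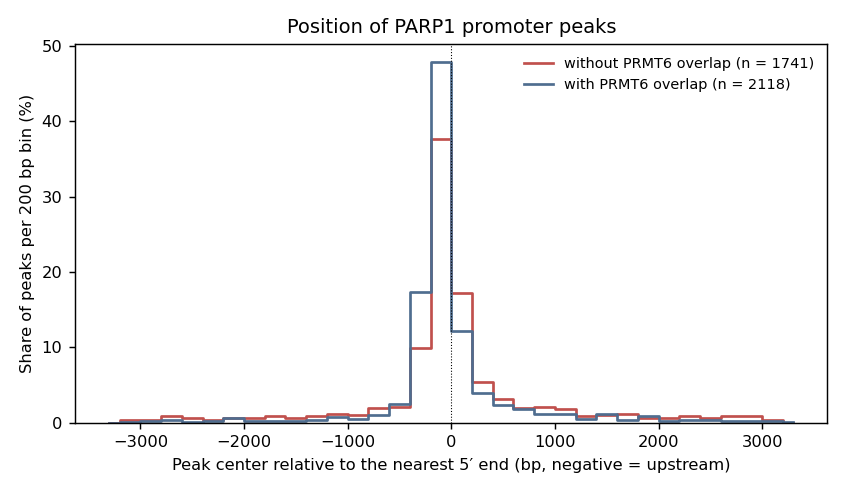
Position of peak centers relative to the nearest protein-coding 5′ end (horizontal axis, bp, negative upstream), as the share of peaks per 200 bp bin (vertical axis, percent), for the 1741 members and the 2118 overlapping PARP1 promoter peaks. In the bin just upstream of the 5′ end lay 37.6% of members and 47.8% of overlapping peaks, and in the bin just downstream 17.2% and 12.1%.

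A promoter can serve genes on both strands. Protein-coding starts on both strands lay in reach of 285 members (16.4%, 14.7% to 18.2%) and 437 overlapping peaks (20.6%, 18.9% to 22.4%). One such member lay between MRPL50, a mitochondrial ribosomal protein gene, and ZNF189, a zinc finger gene, and scored 12.47. An lncRNA gene was overlapped by 17.9% of members (16.1% to 19.8%) and 17.7% of overlapping peaks (16.1% to 19.4%).

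The 1741 members reached 2001 genes. That is 10.2% of the 19674 protein-coding genes (9.75% to 10.6%) and 45.2% of the 4430 genes with a PARP1 promoter peak. Of the 2001 genes, 1791 had no PRMT6 promoter peak (9.10% of all protein-coding genes), 113 also had an overlapping pair of peaks and 97 had PRMT6 peaks that overlapped no PARP1 peak. A single member was found at 1945 of the genes, 2 members at 55, and 3 at MXD3 only. MXD3 encodes a repressor of the MYC network, and its members scored 3.86, 5.73 and 4.91, within 1 kb of each other. Next in the list by symbol were ANKRD2, a muscle stress gene with members of scores 13.28 and 3.50, and AP3S1, a vesicle coat subunit that shares its members, both of score 4.20, with the autophagy gene ATG12.

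Members were counted across chromosomes. On chromosome 19, which is dense in genes, 102 of 364 PARP1 promoter peaks were members (28.0%, 23.5% to 32.9%). If each peak had the share of its score decile, 37.0% would be members there, which lies above the interval. On chromosome 16 the observed share was 34.8% (48 of 138, 26.9% to 43.4%) and that from the score 45.7%. On chromosome 4 it was 60.4% (67 of 111, 50.6% to 69.5%) against 48.8%. On the other 20 of the 23 chromosomes the value from the score lay within the interval of the observed share. Over the 23 chromosomes the share of members and the median score percentile had a Spearman correlation of −0.58, as a description of points that share both libraries. The computation from score deciles was added after the data were seen.

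**Figure D3:**
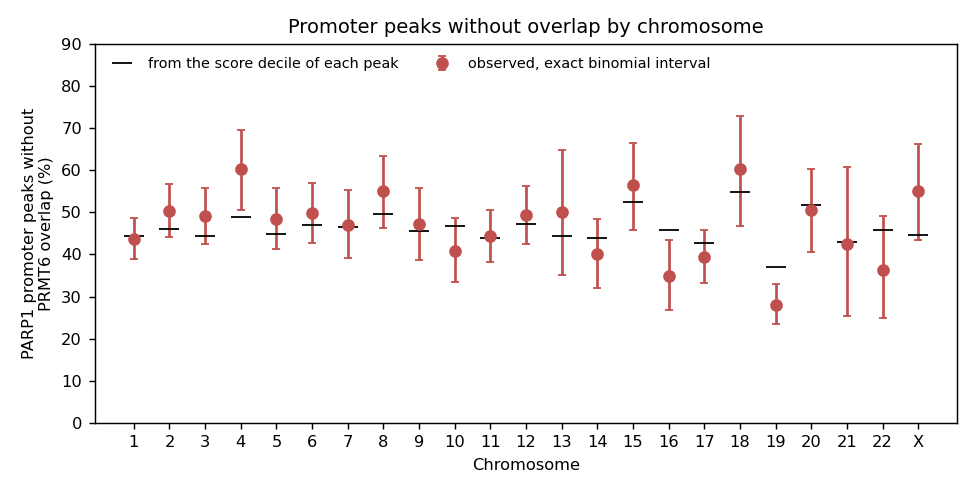
Share of PARP1 promoter peaks without PRMT6 overlap on each chromosome (points, percent, with 95% exact binomial intervals) and the share computed from the score decile of each peak (black dashes). Chromosome 19 had the lowest share, 28.0%, and chromosomes 4 and 18 had 60.4% and 60.3%.

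Promoter sequence was not used by the rule. A window of 300 bases was found in RefSeq (GRCh38.p14) for 1471 of the 1791 genes with a member and no PRMT6 promoter peak (82.1%) and for 2112 of the 2542 genes with an overlapping pair (83.1%). The median ratio of observed to expected CpG was 0.855 (interval 0.841 to 0.868) at the former and 0.849 (0.842 to 0.857) at the latter, and these intervals overlapped. The ratio over the 14867 windows found for any protein-coding gene, which are 75.6% of the genes and so no full background, was 0.769. No window was found for any gene with a PARP1 promoter peak on chromosome 8, where 77 of 140 such peaks were members. The sequence values therefore leave these genes out. The median GC content was 63.7% at genes with members alone and 65.3% at genes with an overlapping pair.

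The motifs searched, on both strands, were the GC box GGGCGG (bound by SP1 and related factors), the CCAAT box CCAAT (NF-Y), the ETS motif CCGGAAG, the NRF1 core GCATGCGC, the E-box CACGTG, the cyclic AMP response element TGACGTCA (CRE), the AP-1 motif TGANTCA, the TATA box TATAAA and the YY1 motif AAGATGGCG. Their letters do not lie within one another, but matches can overlap in a window. A match is a description of letters and not a bound site.

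A CCAAT box was found in 40.2% of windows at genes with members and no PRMT6 peak (591 of 1471, 37.7% to 42.7%), against 50.6% at genes with an overlapping pair (1068 of 2112, 48.4% to 52.7%) and 36.5% of all windows. GC boxes were in 69.3% (66.9% to 71.7%) and 76.9% (75.04% to 78.68%), and in 59.1% of all windows. The ETS motif went the other way, with 24.3% (22.1% to 26.5%) at genes with members alone and 19.5% (17.8% to 21.3%) at genes with an overlapping pair, while 14.5% of all windows held it. The intervals of the NRF1 core overlapped slightly, at 5.03% (3.97% to 6.28%) and 7.15% (6.09% to 8.33%), with 4.36% in all windows. For the E-box (9.11% and 10.7%, all 8.89%), the TATA box (6.46% and 4.92%, all 9.71%), YY1 (4.83% and 4.59%, all 2.82%), AP-1 (5.03% and 4.21%, all 5.64%) and the CRE (3.26% and 3.31%, all 2.64%) the intervals of the groups overlapped as well.

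These shares were also counted by score. Only peaks that covered at least 100 bp of the window were taken, which was a choice made with the data in view. Matches were counted in the whole window of 300 bases, so a match can lie outside the peak. The window held a CCAAT box for 45.4% of 808 members (41.9% to 48.9%) and 57.6% of 1354 overlapping peaks (54.9% to 60.3%). Within the score percentiles from 0 to 40 the shares were 40.2% (34.9% to 45.6%) and 50.6% (42.8% to 58.4%), and from 40 to 60 they were 48.0% and 49.5%. From 60 to 80 they were 49.7% and 54.3%, and from 80 to 100, where 68 members were left, they were 51.5% (39.0% to 63.8%) and 64.3% (60.4% to 68.1%). In every band members had the lower CCAAT share and the higher ETS share, while the intervals overlapped. The ETS shares ran from 28.4% against 22.3% in the lowest band to 22.1% against 19.1% in the highest. The intervals of the GC box shares overlapped in every band too.

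**Figure D4:**
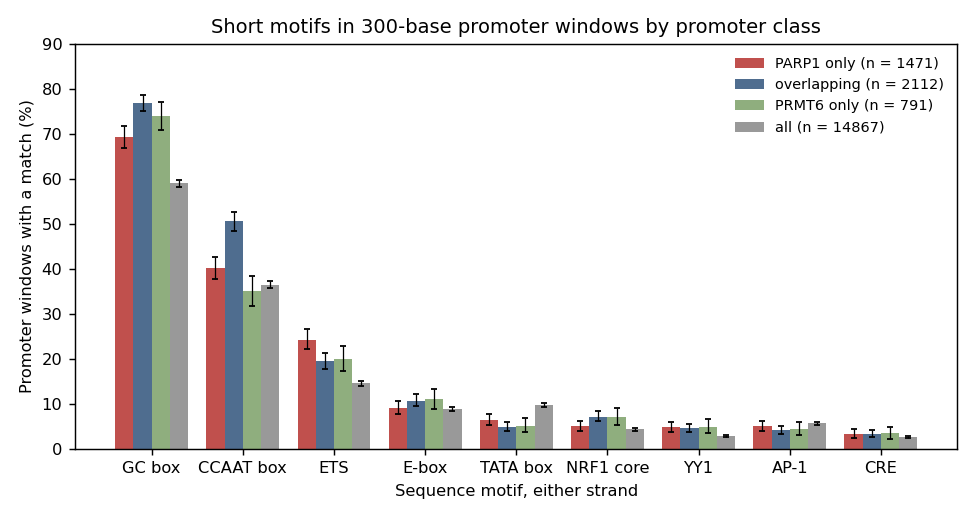
Share of 300-base promoter windows with a match to each motif on either strand (vertical axis, percent, with 95% exact binomial intervals) at genes with a member and no PRMT6 promoter peak (PARP1 only), with an overlapping pair, with PRMT6 alone, and in all windows found. CCAAT boxes stood at 40.2%, 50.6%, 35.0% and 36.5%, and ETS motifs at 24.3%, 19.5%, 20.0% and 14.5%.

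Gene groups were then counted, and the genes named for each are those with the highest member scores among genes without a PRMT6 promoter peak, unless stated otherwise. A peak can reach several genes, so a named gene need not be the nearest, as at APLF, whose peak lay nearer to FBXO48. The background is 10.2% of protein-coding genes with a member, and, among genes with any PARP1 promoter peak, 45.2%. For the counts without a PRMT6 promoter peak, the background is 1791 of all 2001 genes with a member, so most genes of any list lack one. In 6 of the 25 lists the interval lay wholly above 10.2%, namely those of cytosolic and mitochondrial ribosomal proteins, the proteasome, immediate-early genes, the cell cycle and DNA repair. Of 87 genes of cytosolic ribosomal proteins, which build the ribosome, 21 had a member (24.1%, 15.6% to 34.5%), 19 of them without a PRMT6 promoter peak. Of these 19, the highest scores were at RPL8 (12.14), RPL37A (10.57) and RPL36AL (10.26). Of 77 mitochondrial ribosomal protein genes, 16 had one (20.8%, 12.4% to 31.5%), 14 of them without a PRMT6 promoter peak, among which MRPL50 (12.47), MRPS27 (11.09) and MRPS28 (7.61) scored highest. Among 48 proteasome genes, which encode the protease that degrades ubiquitin-tagged proteins, 12 had a member (interval of the share 13.6% to 39.6%), and none of these 12 had a PRMT6 promoter peak. PSMB6 (8.45), PSMD2 (8.44) and PSMA3 (7.32) scored highest.

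Of 31 immediate-early genes, which cells switch on within minutes of a signal, 10 had a member (32.3%, 16.7% to 51.4%), 5 of them without PRMT6. DUSP1, a phosphatase that ends MAP kinase signals, scored 9.23, IER5 8.14 and FOSB, an AP-1 subunit, 7.33. Of 54 cell cycle genes 13 had one (24.1%, 13.5% to 37.6%), with cyclin B gene CCNB1 (11.28), the spindle checkpoint gene MAD2L1 (8.10) and CCNA2 (7.46) highest among those without PRMT6. Of 72 DNA repair genes 15 had one (20.8%, 12.2% to 32.0%). APLF, a histone chaperone that binds poly(ADP-ribose), scored 11.39, the exonuclease gene EXO1 8.67 and APEX1, the abasic site endonuclease, 7.61.

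Read against genes with a PARP1 promoter peak, these groups stood as follows beside the background of 45.2%. The shares were 53.8% for cytosolic ribosomal proteins (21 of 39), 57.1% for mitochondrial ones (16 of 28), 54.5% for proteasome genes (12 of 22), 47.6% for immediate-early genes (10 of 21), 56.5% for cell cycle genes (13 of 23) and 40.5% for DNA repair genes (15 of 37). If each peak had the share of its score decile, the corresponding values would be 44.6%, 55.3%, 47.4%, 53.2%, 40.4% and 46.2%. Both ribosomal lists, the proteasome genes and the cell cycle genes stood above their value from the score, and immediate-early genes and DNA repair genes stood below theirs, without a test. For comparison, 4430 of all 19674 genes had a PARP1 promoter peak of either kind.

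**Figure D5:**
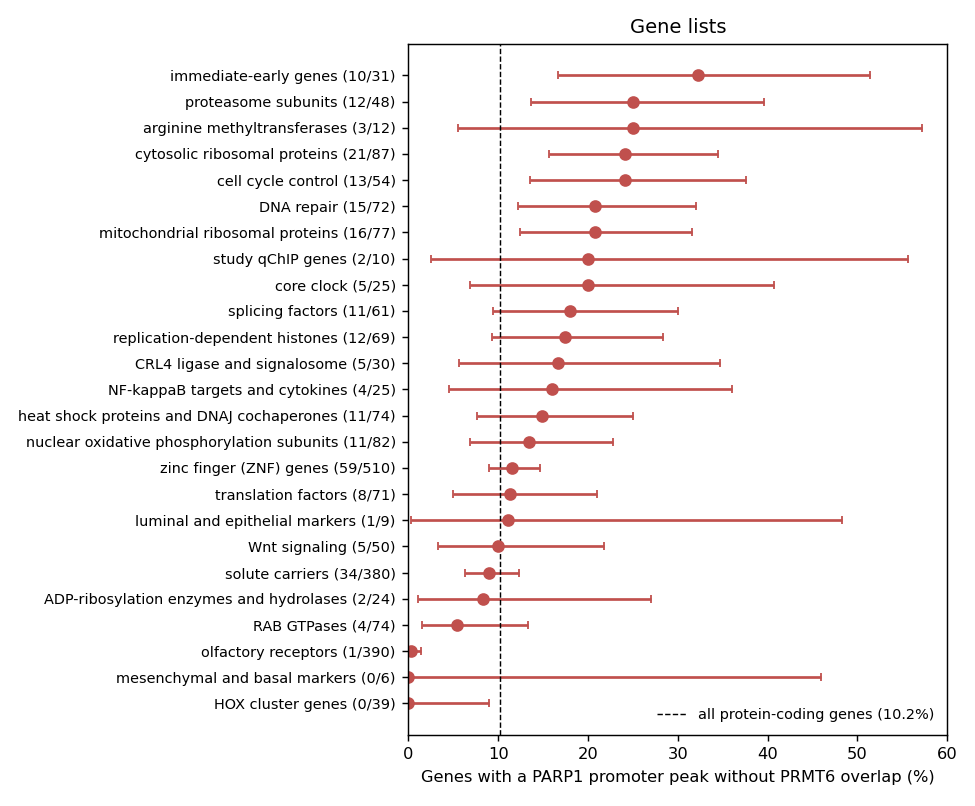
Share of genes in each list that have a member (horizontal axis, percent, points with 95% exact binomial intervals), with counts beside each list name and a dashed line at the 10.2% of all protein-coding genes. Immediate-early genes stood at 32.3%, olfactory receptors at 0.256% and HOX genes at 0.

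In the lists that follow, the interval included the 10.2% of all genes or, for olfactory receptors and HOX genes, lay below it. Histone genes of the replication-dependent clusters had a member at 12 of 69 (17.4%, 9.32% to 28.4%), with H4C3 at 12.08 and H3C1 and H4C1 sharing a peak of 7.35, and several of the others shared a peak between a pair of genes. Splicing factors had one at 11 of 61 (18.0%, 9.36% to 30.0%), with SF3B5 (7.93), PRPF31 (7.42) and SF3B1 (7.19). Subunits of oxidative phosphorylation had one at 11 of 82 (13.4%, 6.89% to 22.7%), with COX5A (8.92), ATP5MK (8.10) and ATP5PF (7.32). Heat shock and DNAJ genes had one at 11 of 74 (14.9%, 7.66% to 25.04%), with HSPH1 (11.89), DNAJB5 (9.79) and DNAJC19 (8.60).

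Zinc finger (ZNF) genes, many of them repressors of transposable elements, had a member at 59 of 510 (11.6%, 8.92% to 14.7%), with ZNF189 (12.47), ZNF697 (11.68) and ZNF441 (11.09). Translation factors had one at 8 of 71 (11.3%, 4.99% to 21.0%), with the eIF2 kinase gene EIF2AK4 (8.28), EIF2S3 (7.66) and EIF2B1 (7.32). Solute carriers had one at 34 of 380 (8.95%, 6.28% to 12.3%), with SLC25A40 (8.89), SLC39A3 (8.45) and SLC50A1 (7.63). For RAB genes it was 4 of 74 (5.41%, 1.49% to 13.3%), with RAB2B (7.93), RAB8B (4.10) and RAB5IF (5.47), which the name pattern took in although it is no RAB GTPase. In 16 further RAB genes PARP1 and PRMT6 peaks overlapped. Olfactory receptors, which work in the nose, had 1 member among 390 genes (0.256%, 0.00649% to 1.42%), at OR52H1 (7.10), and the 39 HOX genes had none (interval up to 9.03%).

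Enzymes and complexes of the study's own subject were counted in the same way. Of 24 genes of ADP-ribosylation 2 had a member (8.33%, 1.03% to 27.0%), and TIPARP (6.93) and PARP16 (5.38), which carried them, had no PRMT6 promoter peak. Neither PARP1 nor PRMT6 had a promoter peak of either list at its own gene. Of 12 genes of arginine methyltransferases and their partners 3 had one (interval of the share 5.49% to 57.2%), of which RIOK1 (9.28), a kinase that binds PRMT5, and PRMT9 (5.64) had a member without PRMT6, and PRMT2 (7.27) had one 109 bp from a PRMT6 peak. Of 30 genes of the CRL4 ubiquitin ligase and the COP9 signalosome, 5 had one (16.7%, 5.64% to 34.7%), 3 of them without PRMT6, at COPS7A (8.30), COPS7B (7.90) and COPS5 (5.93). Of 25 genes in the circadian clock list, which is wider than the core loop, 5 had one (20.0%, 6.83% to 40.7%). Of these, CRY1 (8.14), TEF (7.32) and TIMELESS (5.78) lacked PRMT6. Wnt genes had one at 5 of 50 (10.0%, 3.33% to 21.8%), with the receptor genes FZD8 (7.04) and FZD2 (5.38) and the antagonist DKK1 (5.37). NF-κB targets and cytokines had one at 4 of 25 (16.0%, 4.54% to 36.1%), at CXCL8 (11.12), CXCL2 (6.87), REL (6.09) and IL6 (3.84). All 4 lacked a PRMT6 promoter peak, as did 1791 of all 2001 genes with a member.

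The cell type of the line cannot be checked by expression in these lists, since a peak is not a transcript level. Of 6 mesenchymal and basal markers (VIM, ZEB1, CAV1, CD44, AXL and SPARC) none had a member, and VIM and CAV1 had overlapping peaks of both lists. Of 9 luminal and epithelial markers (ESR1, PGR, GATA3, FOXA1, ERBB2, CDH1, EPCAM, KRT8 and KRT18), ERBB2 alone had a PARP1 promoter peak, a member of score 8.03 that lay 66390 bp from a PRMT6 peak.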

How the data were processed

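Peak positions were measured by CUT&Tag in MDA-MB-231 cells, in 1 library per antibody, although the labels also describe a ligation protocol for immunoprecipitated chromatin. Peaks were called by the authors with MACS, separately per library. The submitters' processing notes name CASAVA 1.4, Bowtie 0.12.8, MACS and MACS2 without thresholds, and the treatment of duplicates and any control library are not given in the sources used here. The deposited lists hold positions and a score, read here from its values as the −log10 p-value of the peak caller, which is not corrected for depth. The depth is unknown, and the number of peaks limits the precision. The notes name hg19, but 61 PARP1 and 55 PRMT6 peaks end beyond GRCh37 chromosome ends, so GRCh38 records were used.

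Starts are the 5′ ends of RefSeq gene records (GRCh38.p14) on chromosomes 1 to 22 and X. The records lack a strand, which came from RefSeq promoter windows (15812 genes) or from GENCODE release 44 by name (3862), and 300 of 19974 genes had none. RefSeq and GENCODE strands differed for 70 genes. Coordinates are printed as listed. Overlap meant at least 1 shared bp. Of the promoter windows of a gene, the one nearest its 5′ end was used.

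Exact binomial (Clopper-Pearson) intervals and order-statistic intervals of medians, at 95%, came from Python 3.11.15, numpy 2.4.6, pandas 2.3.3 and scipy 1.17.1. Overlap and promoter assignment were tested on simulated data. Named are the 12 members of highest score, all over 10000 bp from PRMT6, those at each limit, the 3 genes with most members, marker and qChIP genes, and up to 3 genes of highest score without PRMT6 in each of 25 gene lists. Members and lists were chosen with earlier results of these data known. Alternatives covered the score, list length, overlap rule, promoter window, gene set, width, sequence window and strand source.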

Additional observations from a re-analysis of the deposited data

How the results depend on the processing

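The share of PARP1 promoter peaks without PRMT6 overlap, 45.1%, depended on how lists and overlap were set. It was 29.4% in the higher-scoring part (50%) of the PARP1 list and 54.4% against the higher-scoring part of the PRMT6 list. It was 42.8% when PRMT6 peaks within 500 bp counted, 54.1% with a reciprocal overlap of 50%, 43.0% within 1000 bp of the 5′ end, 43.0% from 2000 bp upstream to 500 bp downstream, 48.4% with all gene records and 47.2% without peaks of the smallest widths. The number of genes, 2001, was 804 in the higher-scoring part of the PARP1 list and 1674 to 2970 elsewhere. The share of members without any PRMT6 peak in their windows, 90.2%, was 95.0% with PRMT6 peaks within 500 bp counted, 92.9% within 1000 bp and 94.6% without the smallest widths. The median score percentile, 41.3, was 66.7 in the higher-scoring part of the PARP1 list, by construction, and 54.8 without the smallest widths. The share of members that span a 5′ end, 40.2%, was 46.0%, 47.5% and 48.8% in the higher-scoring part, within 1000 bp and without the smallest widths. The median CpG ratio, 0.855, was 0.869 in the higher-scoring part, 0.869 within 1000 bp and 0.757 within 500 bp of the 5′ end in GRCh37. Apart from the construction of these settings, the cause of each shift was not tested. Taking the strand from GENCODE alone, added later, gave 45.0% and 1965 genes. No paired analysis was possible because there is only 1 library per antibody. Depth is unknown, so a promoter without a PRMT6 peak is one where none was called, not one where PRMT6 was absent.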

Other observations

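Small noncoding RNA genes lay next to few members. A tRNA gene was within 1000 bp of 11 members (0.632%, 0.316% to 1.13%) and 19 overlapping peaks (0.897%, 0.541% to 1.397%). The members over a tRNA gene included the one at HMGN4, over TRR-ACG1-2 (score 6.49), and the one at SHF, over TRH-GTG1-7 (5.66). A gene of a small nuclear RNA was within 1000 bp of 2 members, C12orf57 beside RNU7-1 and SIRT4 beside RNU4-2 (199 bp apart, score 6.29), and of 8 overlapping peaks. No member overlapped such a gene, whereas 6 overlapping peaks did. A snoRNA gene was within 1000 bp of 7 members, among them RPL3 beside SNORD43 (505 bp), and of 12 overlapping peaks. A miRNA gene was within 1000 bp of 24 members (1.38%, 0.885% to 2.04%) and 29 overlapping peaks (1.37%, 0.919% to 1.96%). Examples are RPL8 beside MIR6850 (342 bp, score 12.14) and MUC1 beside MIR92B (284 bp, score 9.35).

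The letters ACTACAA were noticed in the printed EMSY promoter, and their shares were counted after that. On either strand they were in 4.89% of windows at genes with members and no PRMT6 peak (72 of 1471, 3.85% to 6.13%) and in 5.07% at genes with an overlapping pair (107 of 2112, 4.17% to 6.09%), against 3.16% of all windows found. The intervals of the groups with and without PRMT6 overlapped.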
